A study of Mus musculus with 12 samples.

Results

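The smooth muscle contractile genes described here are 10 genes chosen by name: *Acta2*, *Myh11*, *Tagln*, *Cnn1*, *Lmod1*, *Smtn*, *Des*, *Myocd*, *Cald1* and *Mylk*. They are 10 of 20262 genes with a probe set of their own on at least 1 of the 2 array designs used, and the choice set no limit on a measured value. All 10 were found on both designs, with 18 probe sets on the aorta array and 10 on the design that served for the other samples.

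The study compared C57BL/6J mice lacking both *Prkch*, which encodes protein kinase C eta, and *Apoe* (Prkch-/-Apoe-/-, called knockouts) with mice lacking *Apoe* alone (Apoe-/-, called controls). Loss of *Apoe*, which slows the clearance of lipoproteins from blood and leads to atherosclerosis, is therefore common to every animal, and no group with intact *Apoe* was analysed here. Aortas were from fed males, 20 weeks old and given a high-fat diet for 12 weeks; each genotype had 1 array of RNA pooled from 4 mice. Livers came from males of the same age and diet that were re-fed, with 2 arrays per genotype, and peritoneal macrophages elicited with thioglycolate and not stimulated further came from females kept on regular diet. Of these each genotype had 3 arrays, at 18, 17 and 27 weeks for replicates 1, 2 and 3. The labels name no promoter or cell type that limits the loss of *Prkch*, nor the part of the gene removed. Aorta and liver were taken after saline was run through the heart.

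Smooth muscle cells of the vessel wall contract when calcium, through calmodulin, activates a kinase that phosphorylates the light chain of smooth muscle myosin, which then pulls on filaments of smooth muscle actin. Calponin, caldesmon, transgelin, smoothelin and leiomodin bind or build the actin filaments, and desmin forms intermediate filaments that link the cell's contractile units. Myocardin, acting with serum response factor (SRF) at DNA elements called CArG boxes, drives many of these genes, whose loss in cells of atherosclerotic vessels is the usual mark of a smooth muscle cell leaving its contractile state.

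The upstream sequences of 3 muscle actin genes are shown because the aorta array measured these close relatives beside each other: *Acta2* of smooth muscle, *Acta1* of skeletal muscle and *Actc1* of heart. Each run is the 250 bases before the start of the gene on its own strand, from RefSeq on GRCm38.p6, with CArG boxes in capitals. The *Acta2* window is chr19:34255374-34255623, the *Acta1* window chr8:123894776-123895025 and the *Actc1* window chr2:114052876-114053125, all on the minus strand.

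Acta2: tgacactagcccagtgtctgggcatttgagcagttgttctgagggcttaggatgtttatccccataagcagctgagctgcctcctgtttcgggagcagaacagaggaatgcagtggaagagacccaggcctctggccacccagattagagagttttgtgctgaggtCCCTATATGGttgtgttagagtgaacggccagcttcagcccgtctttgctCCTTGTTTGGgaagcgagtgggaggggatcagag

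Acta1: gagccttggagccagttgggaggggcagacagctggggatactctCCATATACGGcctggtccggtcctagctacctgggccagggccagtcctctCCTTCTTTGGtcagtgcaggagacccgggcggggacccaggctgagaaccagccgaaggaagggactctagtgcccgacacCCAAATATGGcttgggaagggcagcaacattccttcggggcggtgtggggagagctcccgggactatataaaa

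Actc1: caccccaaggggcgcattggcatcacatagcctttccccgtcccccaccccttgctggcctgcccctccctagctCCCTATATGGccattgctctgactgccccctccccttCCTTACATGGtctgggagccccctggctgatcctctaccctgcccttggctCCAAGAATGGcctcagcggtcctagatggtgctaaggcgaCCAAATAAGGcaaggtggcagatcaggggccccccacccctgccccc

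A box was counted where a run of 10 bases matched the CArG consensus with at most 1 letter off, and the consensus reads alike on both strands. *Acta2* held 2 such boxes, at 84 to 75 and 34 to 25 bases before the start, each with 1 letter off. *Acta1* held 3, of which the box at 73 to 64 bases matched in full, and *Actc1* held 4, of which the box at 47 to 38 bases matched in full. Of 32851 RefSeq windows of this length, 8.59% held a box by the same count, 0.67% held at least 2 and 0.0457% at least 3. Windows were found for 7 of the 10 contractile genes, and *Acta2* was the 1 gene among them with a box; *Myh11*, *Tagln* and *Myocd* were not matched. A match describes the letters and does not show binding.

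On the arrays as a whole, macrophage markers read high in macrophages (*Lyz2* between 13.88 and 14.04 log2 units) and hepatocyte markers in liver (*Alb* between 14.20 and 14.27, against 4.93 to 5.28 in macrophages). *Prkch* itself read 9.94, 9.86 and 9.31 in macrophage controls against 9.36, 8.79 and 8.87 in knockouts on its brighter probe set. In liver it read 6.57 and 6.87 against 5.93 and 5.65, and in the control and knockout aorta pools its signals were 17.2 and 9.94, under the limit set for dim genes. Its probe sets cannot check the genotype where they lie outside the part removed. The median of an array was 6.57 to 6.77 log2 units for macrophages and 5.88 to 5.93 for liver, and a signal of 27.8 for the control and 30.1 for the knockout aorta pool. On the macrophage arrays the deposited values themselves fell into 2 sets: any pair among control replicate 3, knockout replicate 2 and knockout replicate 3 (set 2) was exactly identical for 45.2% to 50.6% of 35557 probe sets. Pairs among the other arrays (set 1: control replicate 1, control replicate 2 and knockout replicate 1) had 53 to 69 identical values, and pairs across the sets at most 3. The labels do not say what set them apart.

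The aorta comparison addresses the tissue in which these genes are at home. Of the 10 contractile genes, 7 were higher in the knockout pool and 3 lower. Their median difference was 0.17 on the log2(signal + 16) scale, against a median of -0.0096 and 48.5% of genes higher among all 7098 genes kept. Single differences ran from the 1.19th percentile of the genes kept (*Des*) to the 95.8th (*Myh11*). All 10 reached the limit for dim genes on both arrays. None reached a 2-fold difference, which 1.27% of genes kept did. The myosin heavy chain gene *Myh11* was 1.45 times as high in the knockout pool and *Tagln* 1.32 times, whereas *Des* was at 0.586 of the control pool. With 1 pool per genotype there is no replicate check on these differences, and no p is given. In whole tissue, fewer cells of a type and less RNA per cell cannot be told apart.

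Among genes of the thin filament, *Acta2*, the smooth muscle actin, had signals of 2260 and 2679 in the control and knockout pools, a difference of 0.24 log2 units. That difference lay at the 83.6th percentile of the genes kept, and the naming of this probe set marks it as one that may also match other transcripts. A dimmer *Acta2* probe set read 9.82 and 6.88, below the limit of 32.6 that a gene had to reach on the brighter array. *Tagln*, which encodes the actin-binding protein transgelin, had signals of 826 and 1090 in the control and knockout pools, a difference of 0.39 at the 92.5th percentile. *Cnn1*, the gene of calponin, an inhibitor of myosin's activity on actin, had signals of 159 and 185, a difference of 0.20. All 3 genes were thus higher in the knockout pool on their brighter or only probe set.

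*Cald1* encodes caldesmon, another actin-binding brake on myosin, and its 3 probe sets did not read alike. The brightest had signals of 958 and 1062 in the control and knockout pools (0.15 log2 units), the next 171 and 178 (0.05), and the last 135 and 93.2 (-0.47). As for *Acta2*, the naming of the brightest probe set marks it as one that may also match other transcripts. The direction for *Cald1* therefore depends on the probe set chosen. Smoothelin, an actin-binding protein of fully contractile cells, is encoded by *Smtn*, whose signals were 73.4 and 85.5, a difference of 0.18. *Lmod1*, which encodes the actin nucleator leiomodin, was close to level, with signals of 43.1 and 42.9 and a ratio of 0.996.

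*Myh11*, the motor of the thick filament, had signals of 302 and 437, a difference of 0.51 log2 units at the 95.8th percentile, which placed it highest of the 10. Its dimmer probe set, below the limit, read 18.2 and 21.6, also higher in the knockout pool. *Mylk*, the kinase of the myosin light chain, had signals of 436 and 432 on its brightest probe set and 342 and 381 on the next, differences of -0.014 and 0.15. Its dimmest probe set read 13.9 and 14.8, so the probe sets of *Mylk* bracket a ratio near 1. With each pool scaled by quantiles, the brightest *Mylk* probe set was higher in the knockout pool (0.04).

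*Myocd*, the coactivator that drives the set, had signals of 37.3 and 43.2, a difference of 0.15 just above the limit for dim genes, and its other probe set read 5.84 and 3.64. *Des*, the gene of desmin, stood apart from the others, with a signal of 284 in the control pool against 167 in the knockout. Its difference of -0.72 lay at the 1.19th percentile of the genes kept, and its dimmer probe set read 7.08 and 12.0, below the limit. Desmin is made by skeletal and cardiac muscle as well as by smooth muscle. Of all 18 probe sets, 13 were at or above the limit, of which 9 were higher in the knockout pool and 4 lower.

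**Figure D1:**
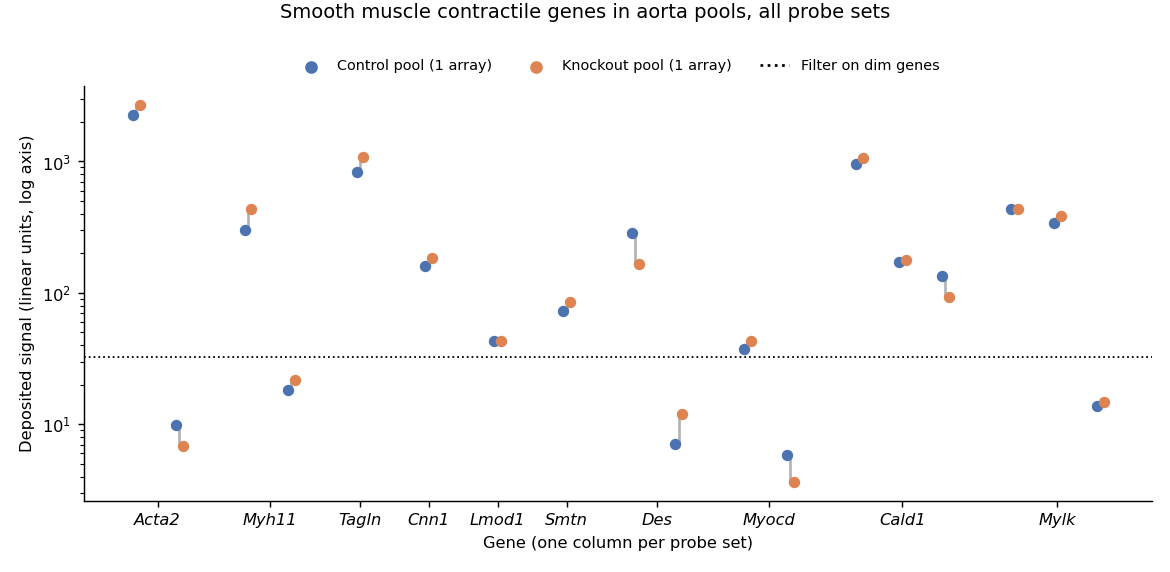
Deposited signal (linear units, log axis) of every probe set of the 10 contractile genes in the control pool (blue) and knockout pool (orange), 1 array each, with a grey line joining the pools and a dotted line at the limit for dim genes (32.6). The brightest probe set of *Des* reads 284 and 167, while those of *Myh11* (302 and 437) and *Tagln* (826 and 1090) are higher in the knockout pool.

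When each aorta array was scaled to the same median signal, all 10 genes shifted down together with the array: the median over all genes moved from -0.0096 to -0.11, the share of genes higher in the knockout pool from 48.5% to 32.6%, and the contractile genes' median from 0.17 to 0.08. On that scaling *Des* differed by -0.82 and *Myh11* by 0.40. Over the scalings, pseudocounts and choices of probe set under which the gene was kept, *Myh11* lay between 0.40 and 0.57, *Tagln* between 0.28 and 0.40, and *Des* between -0.82 and -0.62.

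Other genes of the contractile apparatus and its anchoring were spread around 0. Of 21 kept, 14 were higher in the knockout pool and 7 lower, 0 reached 2-fold on the log2(signal + 16) scale, and their median was 0.05. *Itga8*, an integrin chain abundant in smooth muscle, had signals of 15.5 and 39.4. The added 16 reduces its ratio of 2.54 to 0.81 log2 units. Counted among the 14 higher, it was kept through the knockout pool alone, which fixed its direction. *Csrp1*, a LIM protein of the actin cytoskeleton, had signals of 270 and 396 (0.53), and *Cnn3*, a relative of calponin, 482 and 683 (0.49). *Pdlim3*, a binding partner of alpha-actinin in muscle, lay the other way at 139 and 94.2 (-0.49).

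The genes that set the phosphorylation of myosin were mostly higher, 7 of 9 kept, with a median of 0.24 and 0 at 2-fold. *Ppp1r14a*, an inhibitor of myosin phosphatase that protein kinase C can activate, had signals of 54.6 and 82.9 in the control and knockout pools (0.49). *Rhoa*, the small GTPase upstream of that phosphatase, read 608 and 780 (0.35), its exchange factor gene *Arhgef1* 45.6 and 62.9 (0.36), and *Ppp1cb*, the phosphatase's catalytic subunit, 905 and 1130 (0.32). Inhibitor, activator and target of the pathway thus all lay on the same side.

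Transcription factors and signals that control these genes leaned lower, with 5 of 12 higher, 7 lower and a median of -0.14. *Klf4*, a factor known to repress contractile genes, had signals of 516 and 345 (-0.56), and *Srf*, the DNA-binding partner of myocardin, 60.3 and 41.0 (-0.42). *Klf2*, a factor of flow-exposed endothelium, read 248 and 180 (-0.43), and *Pdgfb*, a growth factor for smooth muscle cells, 91.0 and 71.4 (-0.29). A repressor and the main activator partner of the contractile genes were therefore both lower in the knockout pool. Channels, calcium handling and receptors were split, 3 higher and 4 lower of 7, with a median of -0.026. *Gucy1b1*, a subunit of the nitric oxide receptor, read 47.3 and 69.9 (0.44), and *Pln*, the brake on the calcium pump, 120 and 147 (0.26). The potassium channel genes *Abcc9* and *Kcnj8* differed by 0.25 and -0.18. *Abcc9*, counted among the 3 higher, was kept through the knockout pool alone, which fixed its direction.

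Genes reported to rise when smooth muscle cells lose their contractile state were higher for 6 of 9 kept, with a median of 0.38. *Mmp3*, a matrix protease, had signals of 101 and 240 (1.14), and was the 1 gene of the list past 2-fold. *Tnfrsf11b*, the gene of osteoprotegerin, read 26.4 and 52.5 (0.69). Counted among the 6 higher, it was kept through the knockout pool alone, which fixed its direction. *Vcam1*, an adhesion molecule, read 280 and 406 (0.51), and *Thbs1*, the gene of thrombospondin, 70.7 and 98.3 (0.40). The contractile genes and genes of the opposite state thus both had medians above 0 in the knockout pool.

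Markers of other tissues also differed between the pools. All 16 skeletal muscle markers were lower in the knockout pool, 7 of them at least 2-fold, with a median of -0.91 and summed signals of 16461 and 9997 in the control and knockout pools. *Myh7*, a slow-fibre myosin, had signals of 349 and 85.5 (-1.85), *Myh2*, a fast-fibre myosin, 1324 and 465 (-1.48), *Atp2a1*, the calcium pump of fast fibres, 446 and 142 (-1.55), and *Actn3*, an actinin of fast fibres, 229 and 67.0 (-1.56). *Des*, a gene of skeletal muscle too, differed in the same direction as these markers, and their part in its difference was not tested.

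The actin genes shown above, chosen for this after their values were seen, did not all lie on the same side. *Acta1* had signals of 2213 and 1361 in the control and knockout pools, a difference of -0.70, near that of *Des*. *Actc1* read 1002 and 1027 (0.03), and *Actg2*, the actin of gut and other visceral smooth muscle, 172 and 179 (0.05). *Acta2*, at 0.24, differed in the other direction from *Acta1*. Both windows hold CArG boxes, and any part of the boxes in these differences was not tested. The transcripts of these genes are closely alike in their coding parts, so some sharing of signal between their probe sets cannot be told apart from each gene's own.

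Cardiac markers were higher for 7 of 8 kept (median 0.12; over all markers on the array, summed signals of 3834 and 4410 in the control and knockout pools, sums below being taken likewise), with *Nppa*, an atrial hormone, at 120 and 297. Fibroblast markers were higher for 8 of 9 (0.09, sums 5751 and 7074), led by *Lum*, a matrix proteoglycan, at 417 and 692. Endothelial markers were lower for 6 of 7 (-0.17, sums 1574 and 1294), led by *Vwf*, the gene of von Willebrand factor, at 369 and 238. Macrophage markers were higher for 7 of 10 (0.10, sums 5632 and 5922), of which 1 was kept through the knockout pool alone, which fixed its direction. Adipocyte markers were higher for 3 of 7 (-0.043, sums 12285 and 12241), with *Ucp1* of brown fat at 2598 and 2754. Adrenal markers had sums of 45.0 and 1099 over all on the array; *Hsd3b1*, a steroid-forming enzyme, read 0.806 and 563. The adrenal markers kept passed the limit through the knockout pool alone, which fixed their direction. Markers of skeletal and cardiac muscle, fat and, in the knockout pool, adrenal gland were thus all measured in these pools, and their part in the contractile genes' values was not tested.

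**Figure D2:**
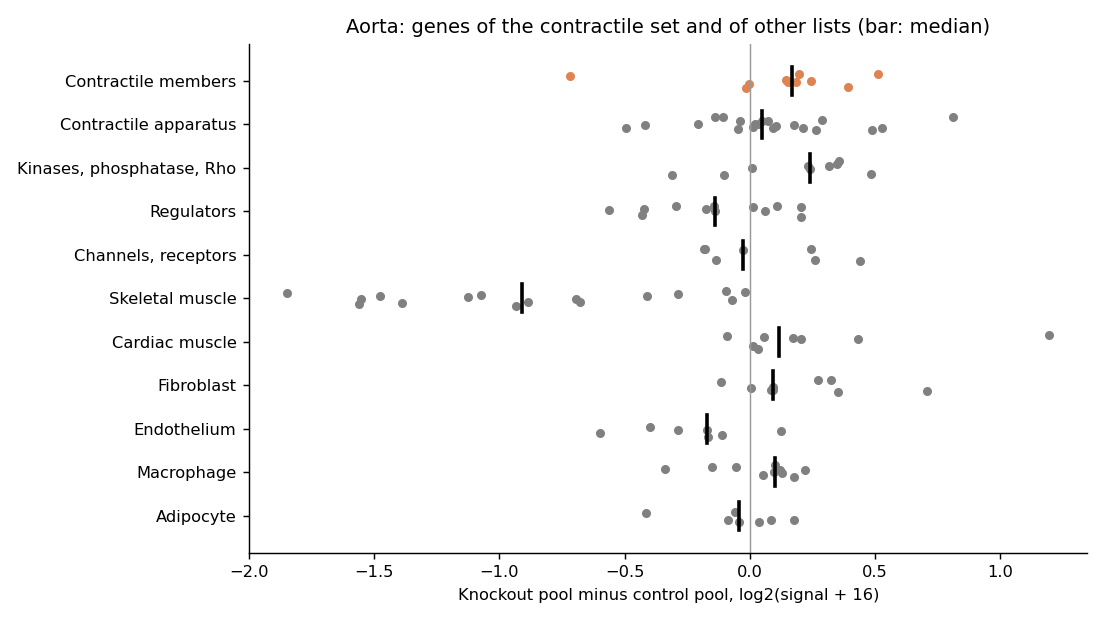
Difference between the knockout and control aorta pools on the log2(signal + 16) scale (horizontal axis) for each gene kept, with the contractile genes in orange, other lists in grey and a black bar at each list's median. The contractile genes centre at 0.17 with *Des* alone at -0.72, among the skeletal muscle markers, whose median is -0.91.

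In macrophages the comparison asks whether these genes, which are not part of the cells' own programme, differed with *Prkch* in cells washed from the peritoneum. No contractile gene passed the threshold: 0 of 9 that passed the filter on dim genes were called by limma (Benjamini-Hochberg adjusted p = 1.00 for each), as were 0% of the 15039 genes tested, of which 105 had an unadjusted p under 0.05. Of these 9, 3 were higher in knockouts and 6 lower, with a median of -0.087, against 63.5% lower and a median of -0.036 over all genes. For none did the knockout arrays lie wholly above or below the controls, as they did for 2.25% of genes. That could not occur for *Acta2*, *Myh11*, *Tagln*, *Mylk* and *Lmod1*, where at least 1 knockout array held exactly the value of control replicate 3. Such ties limit the share over all genes as well, since 41.2% of them had a single value on the 3 arrays of set 2. The replicates are separate biological samples per the labels, and the p-values measure only the spread between these arrays.

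*Des* had the largest difference, reading 6.53, 6.42 and 6.60 log2 units in controls and 6.52, 5.96 and 6.18 in knockouts. Knockout replicates 2 and 3 lay below every control and knockout replicate 1 lay among them. The difference was -0.30 ± 0.15 (SE, n = 3 and 3; 95% interval -0.66 to 0.06; limma, unadjusted p = 0.0897). Within set 1 it was 0.04 and within set 2 -0.53, so it did not hold within both sets. Against the control of the same number and age, the knockouts differed by -0.0082, -0.46 and -0.42. Without knockout replicate 1 the difference was -0.45 (limma, unadjusted p = 0.00696, Benjamini-Hochberg adjusted p = 0.568), and without knockout replicate 2 it was -0.17.

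*Acta2* read 8.30, 8.11 and 7.51 in controls and, among knockouts, 8.33, 7.51 and 7.51. The 3 arrays of set 2 held the same deposited value to the last digit, at the bottom of the range, and the 3 arrays of set 1 lay at the top. The pooled difference of -0.19 ± 0.29 (SE, n = 3 and 3; limma 95% interval -0.89 to 0.51) was 0.13 within set 1 and 0 within set 2. *Tagln* showed the same arrangement, reading 6.21, 6.28 and 5.74 in controls and, among knockouts, 6.24, 5.74 and 5.74. Its difference of -0.17 ± 0.20 was -0.0048 within set 1 and 0 within set 2, so neither set held a difference near the pooled value.

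*Myh11* and *Mylk* were likewise identical on all 3 arrays of set 2. *Myh11* read 6.40, 6.32 and 6.32 in controls and, among knockouts, 6.60, 6.32 and 6.32 (0.07 ± 0.10). *Mylk* read 6.41, 6.36 and 6.31 in controls and, among knockouts, 6.50, 6.31 and 6.31 (0.01 ± 0.09). In both, knockout replicate 1 was the highest array. *Myocd*, below the filter, was identical on set 2 as well, with 5.10, 5.17 and 5.38 in controls and, among knockouts, 5.02, 5.38 and 5.38. In all, 5 of the 10 contractile genes had a single value on the 3 arrays of set 2, as did 41.2% of the genes tested.

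The other genes varied on every array or nearly so. *Smtn* read 7.35, 7.32 and 7.26 in controls and, among knockouts, 7.53, 6.97 and 7.03, the knockouts thus lying on both sides of all 3 controls (-0.13 ± 0.16; without knockout replicate 1, -0.31, limma unadjusted p = 0.00825, Benjamini-Hochberg adjusted p = 0.568). *Cald1* read 7.73, 7.46 and 7.85 in controls and, among knockouts, 7.84, 7.34 and 7.68, ranges that overlap almost wholly (-0.06 ± 0.16). *Cnn1* read 5.68, 5.90 and 6.07 in controls and, among knockouts, 5.89, 5.79 and 5.71 (-0.09 ± 0.12), all 3 knockouts lying within the range of the controls. *Lmod1* read 6.27, 6.57 and 6.27 in controls and, among knockouts, 6.81, 6.22 and 6.27 (0.06 ± 0.18), with knockout replicate 1 highest. For these 4 genes the differences within set 1 were 0.20, 0.25, 0.10 and 0.39, and within set 2 -0.26, -0.34, -0.32 and -0.028.

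**Figure D3:**
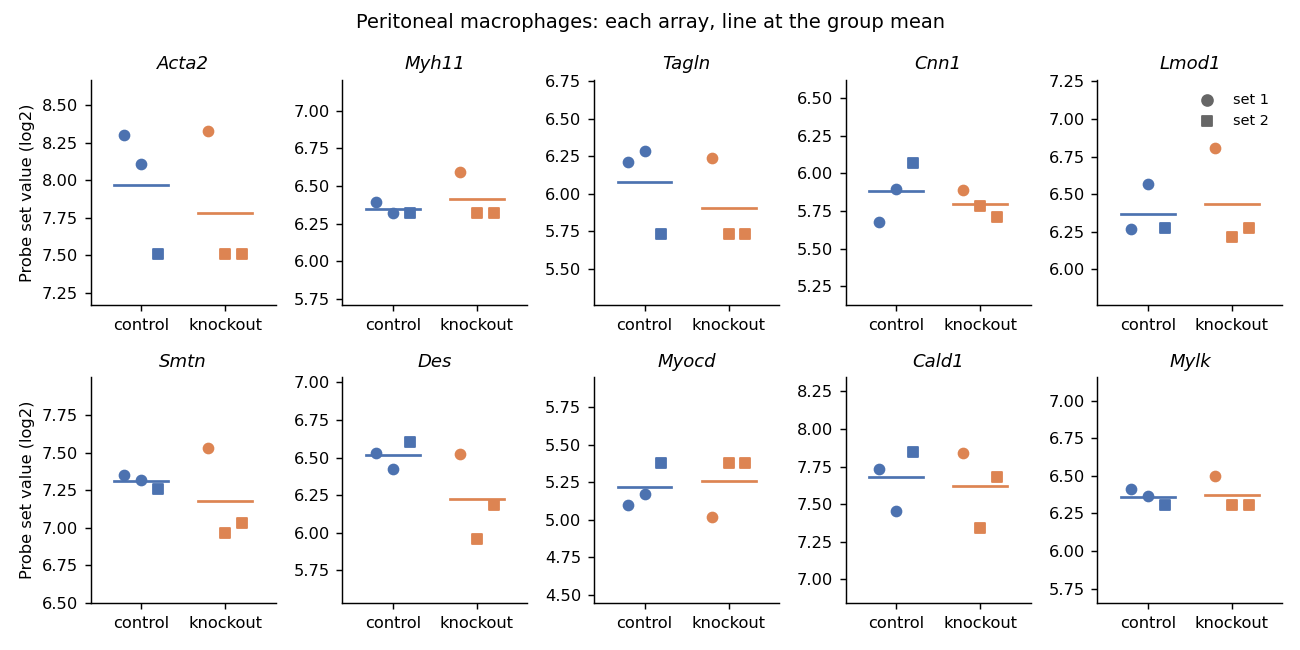
Deposited log2 value of each contractile gene on each macrophage array (points), in replicate order within a genotype, with lines at the group means and the sets of arrays by shape (circles set 1, squares set 2); the vertical scale spans the same number of log2 units in all panels. The squares of *Acta2*, *Tagln*, *Myh11*, *Mylk* and *Myocd* lie at 1 common value each, and knockout replicate 1 lies above the control mean for 9 of 10 genes.

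Array by array, most of the genes lay on 1 side of their control means. Knockout replicate 1 was above the control mean for 9 of the 10 genes (median deviation 0.16), knockout replicate 2 for 1 (-0.25) and knockout replicate 3 for 2 (-0.14). Over the 10 genes the median difference was 0.12 within set 1, with 8 higher and 2 lower, and -0.014 within set 2, with 0 higher, 5 lower and 5 exactly 0. With the set as a term in the limma fit the median of the 9 genes was -0.0024, against 0.014 over all genes. Without knockout replicate 1 all 9 were lower, with a median of -0.17 and 0 called, against a median of -0.087 and 0 called over all genes. Without control replicate 3 the median of the 9 was -0.014, against -0.077 over all genes.

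Markers of fibroblasts and mesothelium, cells that line or underlie the peritoneum, were low on the same knockout arrays, and those of fibroblasts on control replicate 2 as well. Other lists were lower there too: 12, 2 and 2 of 12 skeletal muscle markers lay above the control mean in knockout replicates 1 to 3, 20, 6 and 3 of 22 regulators, 6, 0 and 0 of 8 stellate cell and pericyte markers, and 3, 2 and 1 of 6 endothelial markers. In control replicate 3, the other array of set 2, these counts were 2, 6, 0 and 2. The median deviation of 7 fibroblast markers from the control mean was 0.20, -1.44 and -0.64 in knockout replicates 1 to 3 and 0.32, -0.47 and 0.04 in controls, and all 7 were lower in knockouts on average. Their summed level on the linear scale ran from 1809 to 3362 in controls and from 917 to 3064 in knockouts. *Dcn*, the gene of decorin, differed by -1.15 ± 0.64 (SE, n = 3 and 3; limma, Benjamini-Hochberg adjusted p = 1.00). The 8 mesothelial markers deviated by 0.01, -0.40 and -0.46 in the knockouts, with 7 lower on average and sums of 1014 to 1171 in controls and 740 to 1086 in knockouts. *Krt19*, a keratin of mesothelium, differed by -0.72 ± 0.30. No marker of either list was called, and the part of these cells in the contractile genes' values was not tested.

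The wider contractile apparatus lay lower in macrophage knockouts, with 2 of 21 genes higher, 19 lower, 0 called and a median of -0.14. Its deviations were 0.18, -0.32 and -0.17 in knockout replicates 1 to 3, the pattern of the 10 contractile genes, and -0.17 in control replicate 3. *Tpm1*, a tropomyosin also used by non-muscle cells, differed by -0.59 ± 0.48, and *Actn1*, a non-muscle actinin, by -0.55 ± 0.65. Genes that set myosin phosphorylation were even, 6 higher and 6 lower (median 0.03), with *Mylk3*, a light chain kinase of heart, at -0.19 ± 0.20 and *Rock1*, a kinase downstream of RhoA, at 0.14 ± 0.08. Regulators were higher for 7 and lower for 15 (-0.07), with *Klf2* at 0.40 ± 0.28 and *Prrx1*, a mesenchymal factor, at -0.38 ± 0.26. Channels and receptors were higher for 4 and lower for 6 (-0.017), with *Gucy1a1*, another subunit of the nitric oxide receptor, at -0.44 ± 0.40 and *Kcnma1*, a calcium-gated potassium channel, at 0.42 ± 0.43. None of these was called by limma (Benjamini-Hochberg adjusted p = 1.00 for each).

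In liver, where smooth muscle surrounds the vessels and stellate cells carry some of the same genes, all 10 passed the filter. By limma 0 of 10 were called (Benjamini-Hochberg adjusted p = 1.00 for each), against 0.00627% of the 15942 genes tested, which is 1 gene, while 684 had an unadjusted p under 0.05. Of the 10 genes, 3 were higher in knockouts and 7 lower, with a median of -0.048, against 57.2% lower and a median of -0.023 over all genes. None separated the genotypes, although 29.8% of genes did with 2 arrays against 2.

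*Tagln* had the largest difference, with 6.67 and 6.70 in controls and, among knockouts, 6.26 and 6.73. Knockout replicate 1 was low and knockout replicate 2 just above both controls, giving -0.19 ± 0.17 (SE, n = 2 and 2; limma 95% interval -0.59 to 0.20). *Acta2* read 7.39 and 7.65 in controls and, among knockouts, 7.11 and 7.81, and *Cald1* 9.48 and 9.39 in controls and, among knockouts, 9.11 and 9.60. In both genes the knockouts were the lowest and the highest of the 4 arrays, and the differences were -0.06 ± 0.22 and -0.08 ± 0.18. *Myh11* read 5.82 and 6.08 in controls and, among knockouts, 5.70 and 6.06 (-0.07 ± 0.17), and *Lmod1* 5.97 and 5.88 against 5.76 and 6.01 (-0.04 ± 0.14). Knockout replicate 1 was the lowest array for these 5 genes.

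*Cnn1* lay the other way, with 5.42 and 5.66 in controls and, among knockouts, 5.82 and 5.48 (0.11 ± 0.16). *Mylk*, with 8.17 and 8.26 in controls and, among knockouts, 8.15 and 8.32, differed by 0.02 ± 0.14, and its knockouts enclosed the controls. *Smtn* read 6.86 and 6.75 in controls and, among knockouts, 6.79 and 6.66 (-0.08 ± 0.13), which overlap. *Des* read 6.16 and 5.97 in controls and, among knockouts, 6.12 and 6.09 (0.04 ± 0.13), both knockouts lying between the controls. *Myocd* read 5.17 and 5.22 in controls and, among knockouts, 5.18 and 5.15 (-0.03 ± 0.13), a narrow range close to the filter level of 4.87.

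**Figure D4:**
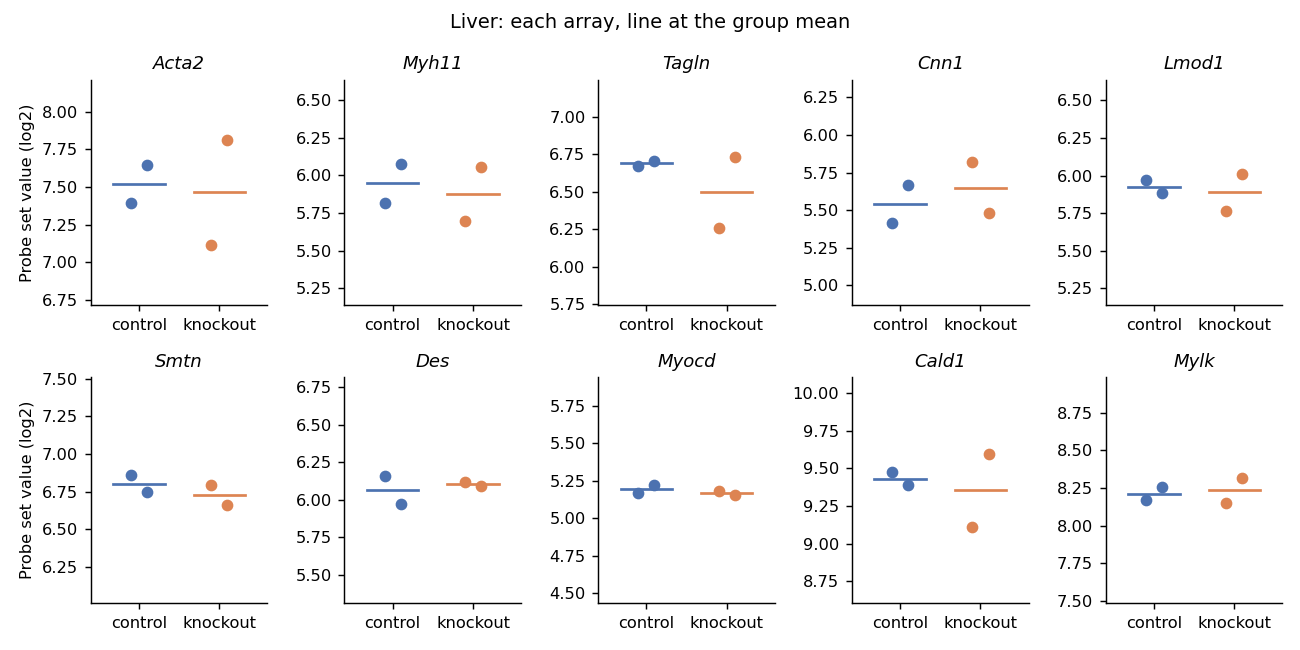
Deposited log2 value of each contractile gene on each liver array (points), in replicate order within a genotype, with lines at the group means; the vertical scale spans the same number of log2 units in all panels. The knockouts overlap the controls in every panel and lie furthest apart for *Acta2* (7.11 and 7.81).

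The liver result also turned on single arrays. Knockout replicate 1 was above the control mean for 2 of the 10 genes (median deviation -0.11) and knockout replicate 2 for 7 (0.06). Without knockout replicate 1, 7 genes were higher and 3 lower (median 0.06, against -0.014 over all genes). Without knockout replicate 2, 2 were higher and 8 lower (-0.11, against -0.033 over all genes). Markers of stellate cells and pericytes deviated by -0.22 and 0.04 in knockout replicates 1 and 2, fibroblast markers by -0.43 and -0.09, and endothelial markers by -0.24 and -0.03, so these were lower on the same array. Fibroblast markers were lower in knockouts for 7 of 8 genes (median -0.27, sums of 3866 to 4213 in controls and 2973 to 3885 in knockouts), and stellate cell and pericyte markers for 7 of 9 (-0.046, sums of 1938 to 2035 and 1732 to 2117). Their part in the contractile genes' values was not tested.

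The wider apparatus in liver was higher for 5 and lower for 17 of 22 genes, 0 called, with a median of -0.12. *Vim*, the intermediate filament gene of mesenchymal and blood cells, differed by -0.75 ± 0.24, and *Tpm2*, a muscle tropomyosin, by -0.55 ± 0.15 (limma, Benjamini-Hochberg adjusted p = 1.00 and 0.989). Genes of myosin phosphorylation were higher for 4 and lower for 11 of 15 (-0.06), with *Rgs4*, a brake on G protein signals, at -0.60 ± 0.14 and *Ppp1r14a* at 0.40 ± 0.19. Regulators were higher for 9 and lower for 13 (-0.08), with *Pdgfb* at -0.43 ± 0.13 and *Klf4* at 0.33 ± 0.13. Channels and receptors were higher for 7 and lower for 6 (0.02), with *Avpr1a*, the vasopressin receptor also made by hepatocytes, at 0.77 ± 0.23 and *Kcnj8* at -0.21 ± 0.14. None was called.

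Whether macrophages and liver differed in their response was tested directly. Of the 10 genes 0 were called for macrophage difference minus liver difference (limma, Benjamini-Hochberg adjusted p = 1.00 for each), as were 0% of 16363 genes, of which 345 had an unadjusted p under 0.05. The largest of these contrasts was that of *Des*, at -0.34 ± 0.22, from -0.30 in macrophages and 0.04 in liver. The contrasts had a median of 0.0039, 5 above and 5 below 0. Sex, diet, age and feeding differ along with the tissue.

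**Figure D5:**
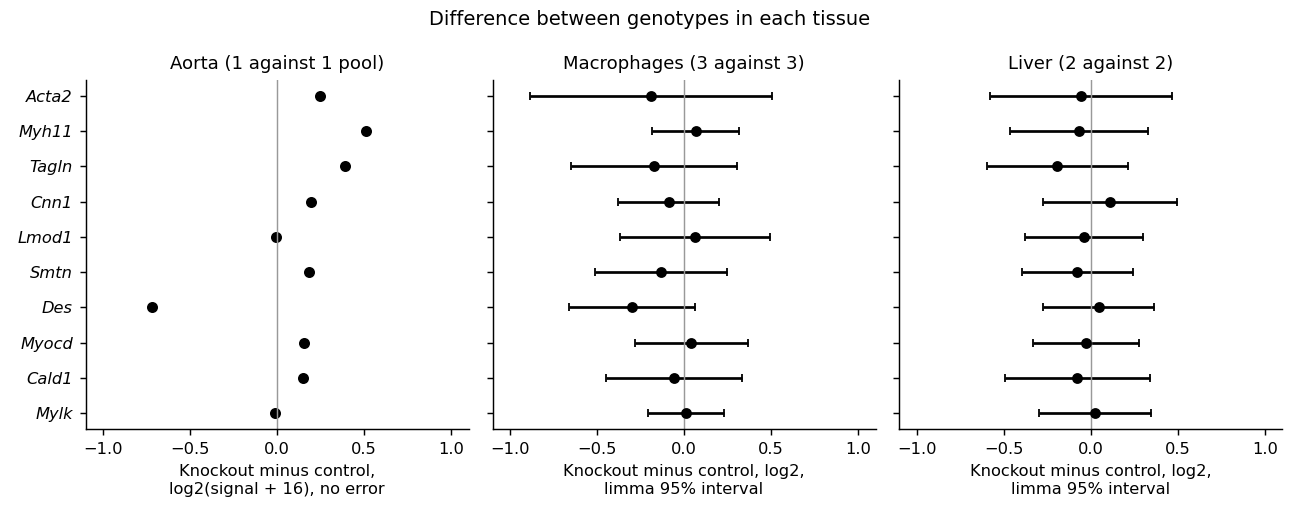
Knockout minus control difference of each contractile gene in aorta pools (log2(signal + 16), no error), macrophages (3 against 3 arrays) and liver (2 against 2 arrays), the latter on the log2 scale with limma 95% intervals from the fit without a filter on dim genes. Every interval in macrophages and liver includes 0, and *Des* lies below 0 in aorta (-0.72) and macrophages (-0.30).

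The levels of 3 contractile genes were higher in liver than in macrophages on either scale. Taken from each array's median, *Mylk* ran from -0.36 to -0.27 log2 units on the macrophage arrays and from 2.22 to 2.44 on the liver arrays, 2.62 higher in liver on average. *Cald1* was 2.51 and *Tagln* 1.37 higher in liver, and in all 3 genes the lowest liver array lay above the highest macrophage array. These 3 kept their direction on the deposited scale without the array medians, at 1.86, 1.74 and 0.60. *Myocd*, *Cnn1*, *Des* and *Smtn* were 0.71, 0.52, 0.48 and 0.29 higher in liver relative to the array medians with no overlap, but -0.055, -0.24, -0.29 and -0.48 as deposited. *Acta2*, *Lmod1* and *Myh11* overlapped between the tissues, at 0.38, 0.27 and 0.30 relative to the array medians and -0.39, -0.49 and -0.47 as deposited. For these 7 genes the direction thus depended on the scale. These values are descriptions, since macrophages and liver also differ in sex, diet and age.

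The genes most like the contractile set across arrays were ranked by Pearson correlation with the mean of the 9 contractile genes that passed the filter in both tissues, over the 10 macrophage and liver arrays after each tissue's mean was taken out. That mean ran from -0.22 in macrophage knockout replicate 2 to 0.24 in knockout replicate 1, and from -0.13 to 0.09 in liver, both liver extremes being knockouts. Among 14617 genes the most alike were *Nfe2l3*, a transcription factor (r = 0.972), *Bmp1*, a procollagen protease (0.963), *Vegfc*, a lymphatic growth factor (0.962), *Gfpt2*, an enzyme of hexosamine synthesis (0.961), *Vps53*, a vesicle tether (0.961), *Katnal1*, a relative of the microtubule-severing katanin (0.961), *Eif5a*, a translation factor (0.955), and *Lamb1*, a laminin chain (0.955). The contractile genes themselves, which make up that mean, ranged from *Acta2* at 0.897, *Mylk* at 0.861 and *Tagln* at 0.859 down to *Cald1* at 0.634 and *Cnn1* at -0.03. Over the macrophage arrays alone all were positive, from *Cnn1* at 0.238 to *Smtn* at 0.994. Over the liver arrays alone *Cnn1* (-0.687), *Smtn* (-0.592) and *Des* (-0.395) ran against the mean, and the others lay between 0.866 and 0.982. The points share arrays within the sets of identical values, and the correlations carry no test.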

How the data were processed

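Per the submitters' processing notes the authors used Affymetrix Expression Console, with version and algorithm not given in the sources used here. Judged by their range, the values the authors deposited for macrophages and liver are log2 summaries per probe set, and those for aorta are linear intensity (signal), both already normalized. Probe sets with 1 gene symbol in the platform annotation were used, the one with the highest mean standing for a gene. Fits used genes whose mean reached the 30th percentile over all probe sets; in aorta the brighter array had to reach the median signal, 32.6 (7098 of 12394 genes). Macrophages and liver were fitted separately with limma 3.58.1 in R 4.3.3 (lmFit, eBayes), and calls required a Benjamini-Hochberg adjusted p under 0.05 over all genes. Aorta differences use log2(signal + 16), which understates changes of dim genes. The computations were tested on simulated data.

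The 10 genes, 18 lists with 217 entries and the tests were chosen with earlier results of these data known. Named genes are the 10, *Prkch*, up to 4 genes per list with the largest difference in aorta and 2 in macrophages and liver, and the 8 most alike (predicted genes left out; some lists are given as counts only). The alternatives were other scalings, filters, pseudocounts, probe set choices, priors and blocks, and leaving out each replicate.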

Additional observations from a re-analysis of the deposited data

How the results depend on the processing

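No contractile gene was called under any setting tried in macrophages, liver or the difference between them, and none reached 2-fold in aorta. Among all genes, too, 0 were called in macrophages and for that difference under any setting. With all liver arrays the most called was 11 higher and 12 lower of 15942, with the replicate number as a block. In aorta 1.27% of genes kept reached 2-fold in the main comparison. The absence of calls is thus not particular to the contractile genes. Over 228 single-gene values of macrophages and liver under the alternatives, 21 changed sign, 20 of them on leaving out an array. Many of the 228 could not change sign. The other filters and priors, averaged probe sets, a single fit over both tissues and the replicate block return the main difference unchanged. In aorta *Mylk* turned from -0.014 to 0.045 with quantile normalization and to 0.060 when its probe sets were averaged, and *Cald1* from 0.15 to -0.47 on its dimmest probe set. The aorta median of 0.17 became 0.21 and 0.15 with pseudocounts of 1 and 32, 0.098 with quantile normalization and 0.081 with median scaling. It was 0.18 with the mean of a gene's probe sets or the dimmest probe set, but over fewer genes. The mean kept 9 contractile genes and the dimmest probe set 5, of which 3 were higher and 2 lower. Of those 5, *Cald1* alone has several probe sets. Both medians are the value of *Smtn*, which has a single probe set. The macrophage median of -0.087 was 0.13 within set 1, and *Acta2* there turned to 0.063 with the set as a block. Leaving out each replicate gave macrophage medians of -0.17 to -0.014 and liver medians of -0.11 to 0.064. In macrophages *Des* then ran from -0.45 to -0.17, *Acta2* from -0.46 to -0.026, *Smtn* from -0.31 to -0.029, *Tagln* from -0.34 to -0.068, *Cald1* from -0.17 to 0.082, *Cnn1* from -0.19 to 0.0069, *Mylk* from -0.052 to 0.044, *Lmod1* from -0.13 to 0.17 and *Myh11* from -0.024 to 0.11. In liver *Acta2* ran from -0.40 to 0.29, *Myh11* from -0.25 to 0.11, *Tagln* from -0.43 to 0.042, *Cnn1* from -0.058 to 0.28, *Lmod1* from -0.17 to 0.086, *Des* from -0.048 to 0.14, *Cald1* from -0.32 to 0.17 and *Mylk* from -0.061 to 0.11. The cause of these shifts was not tested.

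The labels give both genotypes the same replicate numbers. Deviations of same-numbered arrays correlated at 0.40, 0.03 and 0.50 in macrophages, against -0.46 to 0.19 for arrays of unlike number. The arrays of replicate 1 lie within set 1 and those of replicate 3 within set 2, while those of replicate 2 lie across the sets. Pairs of a control and a knockout within a set correlated at 0.07 to 0.50, and pairs across the sets at -0.46 to 0.03. Number and set therefore cannot be told apart for replicates 1 and 3. In liver they correlated at 0.11 against -0.11, which with 2 arrays per genotype is a single value with either sign. The macrophage numbers go with the same labelled ages in both genotypes, but no litter or batch is stated. The main fits did not pair the arrays, and whether the numbers mark pairs is not settled by these values. With the replicate number as a block, 0 of 15039 macrophage genes were called and the contractile median remained -0.087, with an unadjusted p of 0.0535 for *Des* (limma, adjusted 0.950); in liver 11 genes were called higher and 12 lower, against 1 without the block, 0 of them contractile, with a median of -0.048. The number of arrays limits the precision throughout, and in aorta 1 pool per genotype allows no error. Signal near background limits *Myocd* in every tissue. In macrophages *Tagln* on the arrays of set 2 (5.736) and *Cnn1* (mean 5.838) also lay near the filter level of 5.743. With a filter at the 50th percentile, 3 contractile genes passed in macrophages: *Acta2*, *Cald1* and *Smtn*. The deposited values shared within macrophage set 2 leave 5 of the 10 genes with no spread on those arrays.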

Other observations

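Markers of further cell types were also measured in the aorta pools. Of nerve and Schwann cell markers, 0 of 4 were higher in the knockout pool (median -0.18, summed signals 649 and 479 in the control and knockout pools), with *S100b*, a glial calcium-binding protein, at 315 and 171 and *Th*, the enzyme that begins noradrenaline synthesis, at 133 and 128. B cell markers had sums of 100 and 655, with *Ms4a1*, the gene of CD20, at 49.9 and 453. Stellate cell and pericyte markers were higher for 4 of 6 (median 0.02, sums 2397 and 2392) and mesothelial markers for 2 of 3 (0.06, sums 160 and 191). Of the mesothelial markers *Krt8*, at 31.3 and 33.2, was kept through the knockout pool alone, which fixed its direction. The 1 hepatocyte marker kept, *Cyp2e1*, a cytochrome that fat also makes, read 1353 and 1994.

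In liver, macrophage markers were lower in knockouts for 9 of 10 genes, with a median of -0.37 and sums on the linear scale of 7333 to 9982 in controls and 5757 to 6638 in knockouts. *Cd68* differed by -0.84 ± 0.18 (SE, n = 2 and 2; limma, Benjamini-Hochberg adjusted p = 0.712), and 0 of the 10 were called. Genes reported to rise when smooth muscle cells lose their contractile state were lower for 8 of 11 in liver (median -0.012), and 5 of 9 were higher in macrophages (0.05). In macrophages B cell markers summed to between 602 and 1473 in controls and between 567 and 3666 in knockouts, and all 4 were higher on average, with 0 called. Skeletal muscle markers in macrophages had 5 of 12 higher and a median of -0.011.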
